A study of Mus musculus with 30 samples.

Results

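The comparison of indoxyl sulfate (IS) with oxidized low-density lipoprotein (oxLDL), both given together with the peptide pNaKtide, was examined in 10 RNA-seq libraries of 3T3-L1 cells, chosen by their labels out of the 30 libraries of the cell culture series. The IS + pNaKtide cells (n = 5) received 100 µM IS and 0.7 µM pNaKtide, and the oxLDL + pNaKtide cells (n = 5) received 50 µg/mL oxLDL and 0.7 µM pNaKtide, so that the peptide was common to both groups and only the oxidant stimulus differed. All cells were 3T3-L1, a clonal line of mouse preadipocytes, which had spent 5 days in adipogenic medium, so all groups, control included, share this induction. The labels give 5 days of treatment, whereas the methods of the study give 2 days with doses every 24 h. The other groups of 5 libraries served as reference only. They were IS and oxLDL without the peptide, pNaKtide alone, and untreated control cells. IS and oxLDL were each used at a single dose in units that do not convert into each other, so the difference is between these treatments as given. Neither the labels nor the methods state that the libraries came from separate cultures, so the p-values measure the spread between these libraries.

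pNaKtide is a cell-permeant form of NaKtide, a peptide derived from the Na,K-ATPase that binds the kinase Src and blocks its activation by the pump. Oxidants are known to engage the Na,K-ATPase/Src complex and to be amplified by it, and the peptide was designed to interrupt that loop. IS is a protein-bound uremic toxin made from dietary tryptophan, which enters cells through organic anion transporters and is a ligand of the aryl hydrocarbon receptor. OxLDL carries oxidized phospholipids, oxysterols and cholesterol, is taken up through scavenger receptors such as CD36, and delivers sterols that act on the SREBP2 and LXR pathways. The question put to these libraries was whether cells that met either stimulus in the presence of pNaKtide ended with the same transcriptome.

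Gene levels are counts scaled by the TMM method to library totals (CPM), and every fold change is IS + pNaKtide over oxLDL + pNaKtide unless another is named, so that a positive log2 fold change is a higher level with IS + pNaKtide. A gene was called at a BH-adjusted p of 0.1 in edgeR's quasi-likelihood test. The IS + pNaKtide libraries held 11514057 to 13195028 counts and the oxLDL + pNaKtide libraries 6945498 to 11534363. The smallest was oxLDL + pNaKtide replicate 4, which also scored 60.4 on the first principal component of the 10 libraries, where the other oxLDL + pNaKtide libraries scored 6.84 to 25.1 and the IS + pNaKtide libraries -27.6 to -11.5. Replicates 3 and 4 of IS + pNaKtide were the most alike of all pairs within both groups, with a chi-square per degree of freedom of 1.28, above the sampling noise, and were kept as separate libraries.

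The adipocyte markers summed to 8944 to 10179.7 CPM with IS + pNaKtide and 10057 to 11304 CPM with oxLDL + pNaKtide, with all 7 detected, as the label of adipogenic 3T3-L1 cells implies. The extraction text of the labels speaks of adipose tissue, whereas the other labels give cultured cells. Of 7 macrophage markers, Adgre1, Ptprc and Itgam had no count in any of the 10 libraries, and the summed level of the 7 was 10.3 to 13.5 CPM and 8.23 to 11.95 CPM. The 5 endothelial markers summed to at most 0.633 CPM, with Cdh5 and Emcn at 0, and the 5 epithelial markers to at most 2.37 CPM. The preadipocyte markers summed to 322 to 470 CPM with IS + pNaKtide and 352 to 487 CPM with oxLDL + pNaKtide, and the myofibroblast markers to 13.7 to 18.3 CPM and 16.4 to 25.1 CPM.

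Base composition moved with the groups. Over 12541 genes the log2 fold change correlated with the GC content of a gene's exons (r = -0.57) and with the log2 of their length (r = 0.45), a description across genes, which are not independent replicates. In the lowest of 10 equal bins of GC content (bin median 40.9%) the median log2 fold change was 0.53, and in the highest (59.2%) it was -0.25. Taken library by library, the correlation of GC content with the deviation from the mean of all 30 libraries was -0.50 to -0.13 with IS + pNaKtide and 0.21 to 0.64 with oxLDL + pNaKtide. The same measure spanned -0.63 to -0.40 with oxLDL alone and -0.61 to 0.53 with IS alone. It spanned -0.45 to 0.58 with pNaKtide alone and -0.40 to 0.64 in control cells. The trend of every library over length and GC content was removed in a further fit, called the detrended fit below, and values from it are given where it ended or made a call or moved a log2 fold change by more than 1.5 times. The part of the trend in the results was not otherwise tested, and a change of the cells that follows base composition cannot be told apart from a change of the libraries.

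**Figure D1:**
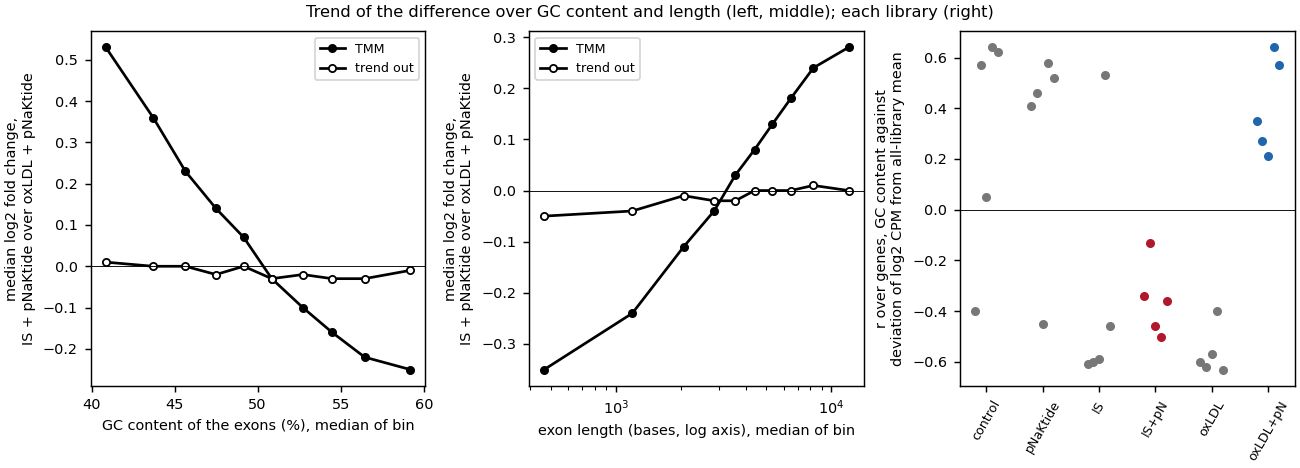
Median log2 fold change (IS + pNaKtide over oxLDL + pNaKtide) in 10 equal bins of the genes ordered by exon GC content (left, %) and exon length (middle, bases, log axis), for TMM scaling (filled) and with the trend taken out (open), and for every library the correlation over genes between GC content and the deviation of log2 CPM from the mean of all libraries (right; red, IS + pNaKtide; blue, oxLDL + pNaKtide). With TMM scaling the median falls from 0.53 to -0.25 over GC content and rises from -0.35 to 0.28 over length, and the red and blue libraries lie on opposite sides of 0.

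With the peptide present in both arms, 6850 of 20139 genes tested differed between IS and oxLDL, which is 34.0%. Of these 3731 genes (18.5% of those tested) were higher and 3119 (15.5%) lower with IS + pNaKtide. Most differences were small. Called genes had a median absolute log2 fold change of 0.48, and 557 of them differed by more than 2-fold. For 3926 genes (19.5%) every IS + pNaKtide library lay above or below every oxLDL + pNaKtide library, 1999 of them above (9.93%) and 1927 below (9.57%). In the detrended fit 5020 genes (24.9%) were called, 2219 higher (11.0%) and 2801 lower (13.9%), and 3592 of the calls were shared. With library size alone as scaling the split was 6207 higher and 1679 lower, and all genes then had a median of 0.22 in place of 0.05. Without oxLDL + pNaKtide replicate 4 the number called was 4504, and without replicates 1 and 4 of that group 3282. Of the latter, 1569 were higher and 1713 lower among 20033 genes tested. Counts of list members in each setting below are to be set against the split over all genes in that setting.

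**Figure D2:**
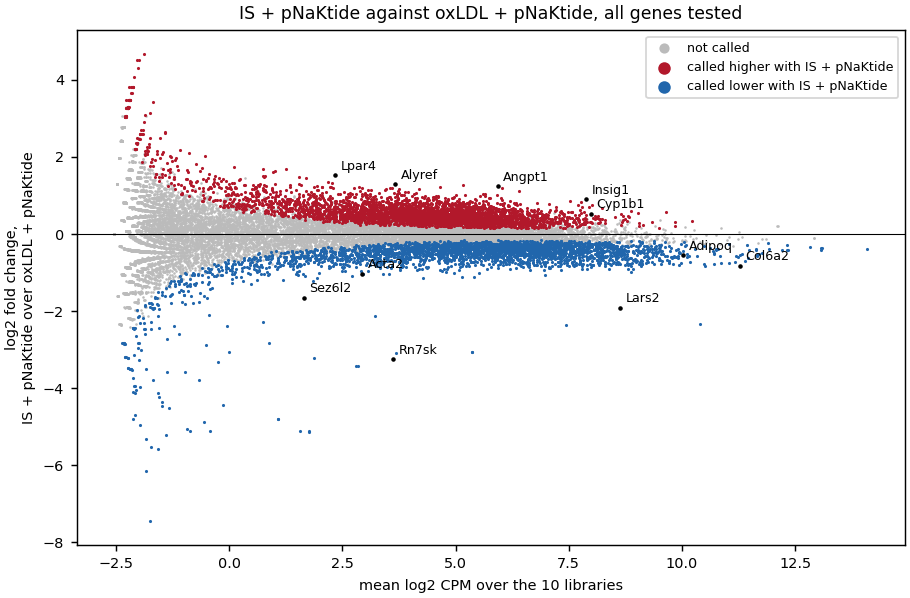
Log2 fold change of each gene tested (IS + pNaKtide over oxLDL + pNaKtide) against its mean log2 CPM over the 10 libraries, with called genes in red (3731 higher) and blue (3119 lower) and genes not called in grey. Called genes lie on both sides of 0 with a median absolute value of 0.48, and Rn7sk and the 7SL copies lie around -3, below most genes of similar or higher level, at values that become -1.46 for Rn7sk and -1.46 and -1.44 for Rn7s1 and Rn7s2 without oxLDL + pNaKtide replicate 1.

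The genes furthest up with IS + pNaKtide included a lipid receptor, an angiogenic ligand, an interferon-inducible GTPase and zinc finger genes. Lpar4 is a receptor for lysophosphatidic acid. Its levels were 8.51, 7.62, 9.4, 9.51 and 7.95 CPM in the IS + pNaKtide libraries and 3.94, 3.59, 3.29, 1.32 and 2.42 CPM in the oxLDL + pNaKtide libraries. The groups did not overlap, and the log2 fold change was 1.52 (SE 0.29, adjusted p = 0.000999), or 0.77 in the detrended fit. Angpt1, the ligand of the receptor Tie2, stood at 95.3, 86.2, 97.6, 102 and 96.1 CPM against 46.2, 47.8, 46.5, 23.3 and 36.5 CPM. The lowest of the former was well above the highest of the latter, and the log2 fold change was 1.24 (SE 0.19, adjusted p = 0.000193), which the detrended fit put at 0.60 (adjusted p = 7.93e-07).

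The guanylate-binding protein gene Gbp7, which belongs to an interferon-inducible family, was at 3.9 ± 0.684 and 1.55 ± 0.658 CPM (SD, n = 5 each; log2 fold change 1.28, adjusted p = 0.00108). Arhgap5, which codes for the GTPase-activating protein p190-B, was at 58.9 ± 9.85 and 24 ± 9.46 CPM. Its log2 fold change of 1.28 became 0.44 when detrended. Alyref, an mRNA export adaptor, had 1 library out of place. It read 21.5, 19.5, 23.9, 20.3 and 20.3 CPM with IS + pNaKtide and 6.37, 6.33, 18.1, 6.29 and 4.93 CPM with oxLDL + pNaKtide, where replicate 3 lay near the IS + pNaKtide libraries and the other 4 far below. The log2 fold change was 1.29 (adjusted p = 0.00196). The remaining genes of this set were Ogn, described with the proteoglycans, and the zinc finger genes Zfp994, Zfp738, Zfp51 and Zfp945, described with their family.

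At the other end stood small structural RNAs, with 1 oxLDL + pNaKtide library far above all others. Rn7sk, the 7SK RNA that holds the elongation factor P-TEFb inactive, was at 6.38, 4.45, 8.18, 4.68 and 5.2 CPM with IS + pNaKtide. With oxLDL + pNaKtide it was at 212, 11.8, 20.2, 18.7 and 12.7 CPM, so that replicate 1 stood far above the other 4, which themselves did not overlap with IS + pNaKtide. The fitted log2 fold change was -3.24 (SE 0.64, adjusted p = 0.00163), and without replicate 1 of oxLDL + pNaKtide it was -1.46. The largest adjusted p on leaving out a library was 0.00575. Rn7s1 and Rn7s2, near-identical copies of the 7SL RNA of the signal recognition particle between which reads may be split, behaved alike. Their means were 20 ± 4.26 and 20.1 ± 4.2 CPM against 165 ± 248 and 166 ± 251 CPM (log2 fold change -3.05 each), and replicate 1 alone reached 608 and 615 CPM. Without that library the log2 fold changes were -1.46 and -1.44. Rn7s6, a related 7S RNA, had a log2 fold change of -3.09 (adjusted p = 0.00294), and -1.32 without it.

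The same library was high for CT010467.1, Lars2, Gm26917 and Gm42418. Lars2, the mitochondrial leucyl-tRNA synthetase, read 258, 243, 256, 224 and 227 CPM against 2713, 409, 496, 529.6 and 397 CPM. Its log2 fold change was -1.91 (adjusted p = 0.00155), and -0.93 without replicate 1, where the oxLDL + pNaKtide libraries still lay above all IS + pNaKtide libraries. CT010467.1 (-2.34, 0.00121), Gm26917 (-2.37, 0.000541) and Gm42418 (-2.13, 0.000706), given with log2 fold change and adjusted p, lie on chromosome 17, where the annotation gives the first as ribosomal RNA and the others as noncoding RNAs. Without replicate 1 their log2 fold changes were -1.21, -1.38 and -1.20. Among 21 abundant noncoding RNAs tested, 8 were called lower (38.1%) and 1 higher (4.76%), against 15.5% and 18.5% of all genes, with a median of 0.02 (-0.16 detrended). The 1 called higher was the small nucleolar RNA host gene Snhg17 (log2 fold change 0.67, adjusted p = 0.0859), a call that was lost on leaving out any of 9 of the 10 libraries and in the detrended fit (0.58, adjusted p = 0.198).

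Protein-coding genes also stood among those furthest down. Sez6l2, a membrane protein known from neurons, was at 1.8, 1.37, 1.45, 2.22 and 1.52 CPM with IS + pNaKtide and 4.86, 4.54, 3.29, 7.45 and 6.75 CPM with oxLDL + pNaKtide. All 5 of the latter exceeded all 5 of the former (log2 fold change -1.65, SE 0.22, adjusted p = 7.19e-05), with -1.49 in the detrended fit. Ppp1r1a, the cAMP-regulated inhibitor 1 of protein phosphatase 1, was at 2.49 ± 0.269 and 5.51 ± 1.04 CPM, with a log2 fold change of -1.13 (adjusted p = 0.000289). Ybx2 (log2 fold change -1.18, adjusted p = 0.000743), an RNA-binding Y-box protein of germ cells, and CAAA01147332.1 (log2 fold change -1.22, adjusted p = 0.00992), a gene on an unplaced scaffold, were lower too.

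Without pNaKtide few genes were called between the stimuli. Of the same 20139 genes, 3 (0.0149%) differed between IS and oxLDL in edgeR, with 1047 genes at an unadjusted p under 0.05 and 41 called by DESeq2. With only the libraries compared in the edgeR fit, 0 were called. Of the 6850 genes that differed with the peptide, the median absolute value was 0.13 on the log2 scale in cells without it, and 1395 (20.4%) had the same sign there, against 34.8% over all genes tested. The difference itself changed with the peptide for 5894 genes (29.3%), 3094 in the positive direction (15.4%) and 2800 in the negative (13.9%). In the detrended fit the change was called for 3498 genes, and with library size alone the split was 4853 positive and 1613 negative. IS replicate 4 had a GC correlation of 0.53 where the other IS libraries had -0.61 to -0.46, and without it the number was 3790. Without oxLDL + pNaKtide replicate 4 it was 3875.

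**Figure D3:**
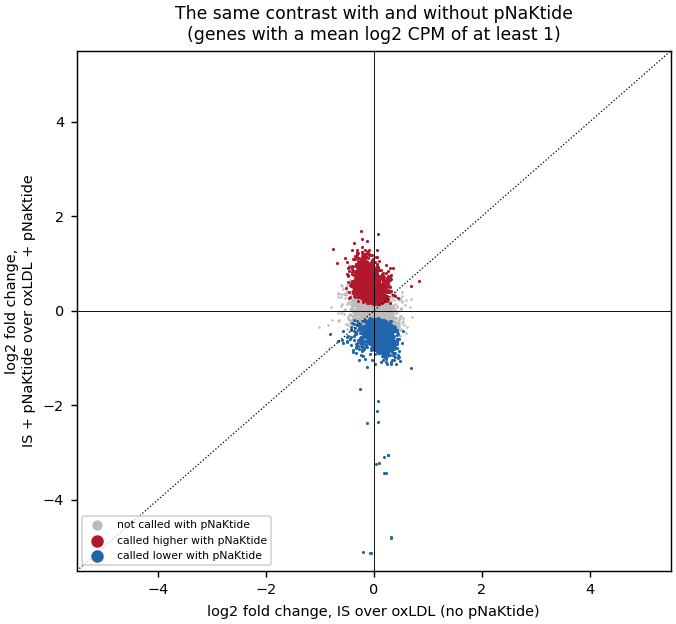
Log2 fold change of IS over oxLDL in cells without pNaKtide (horizontal) against IS + pNaKtide over oxLDL + pNaKtide (vertical), for genes whose log2 CPM averaged 1 or more, with genes called in the latter in red (higher) and blue (lower), and the dotted line marking equal values. The points form a vertical band, with a median absolute value of 0.48 on the vertical and 0.13 on the horizontal axis for all called genes.

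The largest changes of the difference fell on Ogn, zinc finger genes and the small RNAs. In the positive direction they were Ogn (change 2.07, adjusted p = 0.00965), Zfp984 (1.90, 0.0365), Zfp758 (1.84, 0.0232) and Zfp994 (1.81, 0.0135). Zfp984 was at 3.73 ± 0.754 and 1.12 ± 0.686 CPM, and Zfp758 read 2.7, 2.31, 2.83, 3.3 and 2.38 CPM with IS + pNaKtide and 0.927, 2.11, 1.33, 0 and 1.41 CPM with oxLDL + pNaKtide. The groups were apart for both genes. The comparison with the peptide gave Zfp984 a log2 fold change of 1.61 (adjusted p = 0.0216, detrended 0.96) and Zfp758 one of 1.12 (adjusted p = 0.0607). The latter call was lost in the detrended fit (0.43, adjusted p = 0.322) and in 3 of 10 leave-outs (adjusted p up to 0.162). In the negative direction they were Rn7s2 (-3.32, 0.0159), Rn7s1 (-3.31, 0.0157), Rn7sk (-3.29, 0.0188) and Rn7s6 (-3.28, 0.0251), all with the high oxLDL + pNaKtide library. Without that library their changes were -1.71, -1.72, -1.51 and -1.52. In the detrended fit the change was 1.22 for Ogn (adjusted p = 0.0312), 0.89 for Zfp758 (0.0858) and 0.98 for Zfp994 (0.0283), and it was not called for Zfp984 (1.05, adjusted p = 0.156) or Rn7s6 (-2.47, adjusted p = 0.107).

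Set against pNaKtide alone, the 2 arms gave unequal numbers. IS + pNaKtide differed from pNaKtide in 3388 genes (16.8%) and oxLDL + pNaKtide in 5 genes (0.0248%), with 5749 and 1363 genes at an unadjusted p under 0.05 and with 4709 and 95 called by DESeq2. These comparisons share the pNaKtide libraries. The former number rested on single libraries. It was 22 without pNaKtide replicate 1, 23 without pNaKtide replicate 2 and 5487 without pNaKtide replicate 3, 2129 without pNaKtide replicate 4, and 1191, 220, 428 and 506 without IS + pNaKtide replicates 1, 3, 4 and 5. It was 464 at an adjusted p of 0.05, 2211 in the detrended fit, and 3340 higher with 1036 lower with library size alone.

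**Figure D4:**
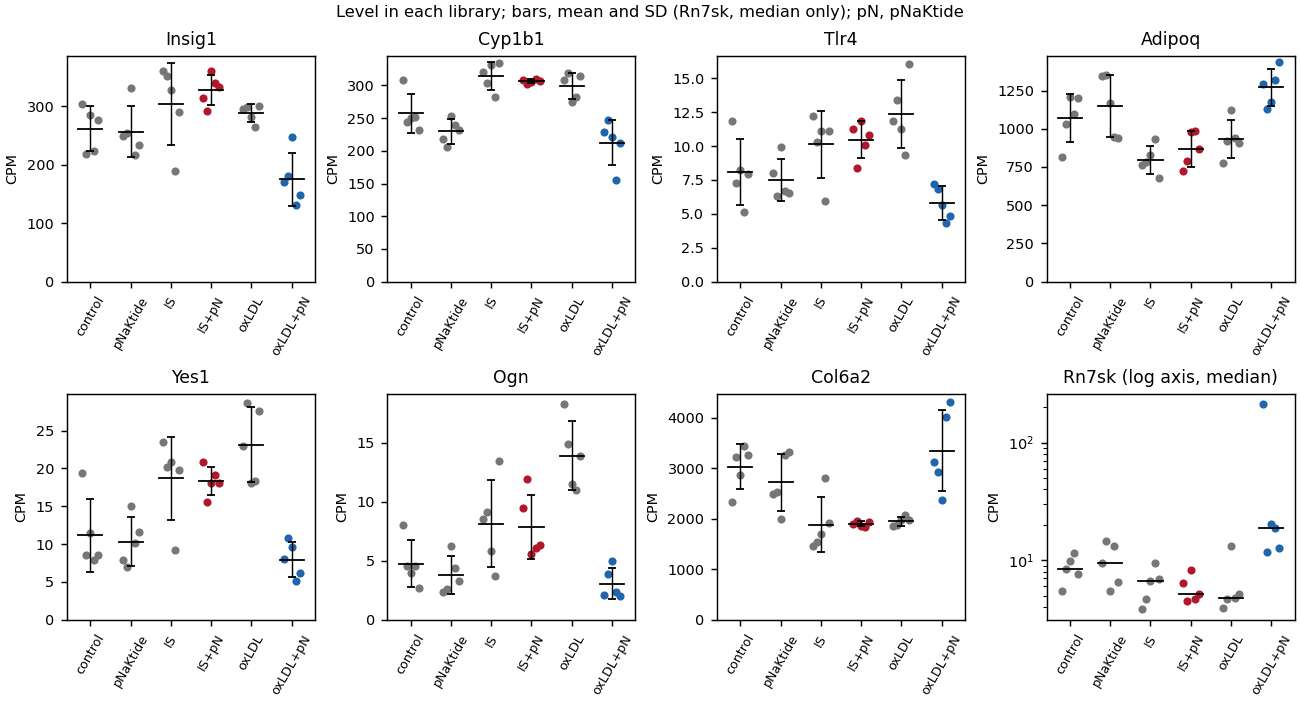
CPM in each of the 5 libraries of the 6 groups (points) with mean and SD (bars) for 7 genes, and with the median for Rn7sk, whose axis is logarithmic. In each of the panels the oxLDL + pNaKtide libraries (blue) are apart from the IS + pNaKtide libraries (red), while the IS and oxLDL libraries without the peptide overlap.

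Genes of the aryl hydrocarbon receptor (AhR) pathway, in which a ligand-bound receptor enters the nucleus with Arnt and binds xenobiotic response elements, were called at shares near those over all genes. Of 18 genes tested, 4 were called higher (22.2%) and 4 lower (22.2%), against 18.5% and 15.5% of all genes tested, with a median of 0.06 (-0.04 detrended). Scaling by library size alone gave 7 higher and 2 lower, and 2 were higher and 3 lower without oxLDL + pNaKtide replicates 1 and 4. Cyp1b1, a cytochrome P450 induced by the receptor, was at 309, 302, 305, 310.3 and 307 CPM with IS + pNaKtide and 228, 247, 221, 155 and 212 CPM with oxLDL + pNaKtide. The former lay within a narrow range and above all of the latter. Its log2 fold change was 0.53 (SE 0.10, adjusted p = 0.000623), and 0.35 in the detrended fit (adjusted p = 0.000299). The levels were 206 to 253 CPM with pNaKtide alone, 282 to 334 CPM with IS and 275 to 319 CPM with oxLDL. Tiparp, the ADP-ribosyltransferase that represses the receptor in turn, read 54.5, 45.3, 55.1, 54.5 and 51.8 CPM against 31.5, 36.2, 36.1, 19.2 and 27 CPM. No library of one group reached the other, and the log2 fold change was 0.79 (SE 0.17, adjusted p = 0.00191) or 0.28 detrended. IS and oxLDL alone spanned 28.1 to 56.9 and 50.6 to 62.7 CPM.

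The receptor itself was expressed at a low level. Ahr was at 1.39, 0.942, 1.68, 1.3 and 1.45 CPM and 1.04, 0.633, 0.711, 0.828 and 1.01 CPM, values that overlapped (log2 fold change 0.69, adjusted p = 0.0498), and the call was lost in 4 of 10 leave-outs (adjusted p up to 0.121) and in the detrended fit (0.43). Nqo1 (log2 fold change 0.23, adjusted p = 0.0435), a quinone reductase shared with the Nrf2 pathway, was the fourth gene called higher. Those lower included Aldh3a1 (log2 fold change -0.91, adjusted p = 0.0106), an aldehyde dehydrogenase induced by dioxin, Slc7a5 (log2 fold change -0.31, adjusted p = 0.00995, detrended -0.17), which carries tryptophan and other large amino acids, and Gstm1 (-0.50, adjusted p = 0.0123, detrended -0.24), a glutathione transferase. Cyp1a1, the classical target, had a log2 fold change of -0.44 (adjusted p = 0.821).

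The promoters of Cyp1b1 and Tiparp are shown because these 2 targets were higher with IS + pNaKtide while other targets were lower. The core of the xenobiotic response element was searched as GCGTG on both strands in the 250 bases before the start of each gene in RefSeq (GRCm38.p6), and capitals mark a match, here in the reverse direction. It lies in 28.2% of 32851 promoters and in 8 of the 13 list members with an entry. The first run is chr17:79715062-79715311 on the - strand, with the match starting 76 bases before the start, and the second chr3:65528197-65528446 on the + strand, with the match 170 bases before it.
Cyp1b1: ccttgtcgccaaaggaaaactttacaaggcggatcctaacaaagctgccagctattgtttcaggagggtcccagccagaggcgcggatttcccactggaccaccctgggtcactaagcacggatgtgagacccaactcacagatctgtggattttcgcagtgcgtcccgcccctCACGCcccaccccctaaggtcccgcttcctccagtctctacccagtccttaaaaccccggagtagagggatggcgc
Tiparp: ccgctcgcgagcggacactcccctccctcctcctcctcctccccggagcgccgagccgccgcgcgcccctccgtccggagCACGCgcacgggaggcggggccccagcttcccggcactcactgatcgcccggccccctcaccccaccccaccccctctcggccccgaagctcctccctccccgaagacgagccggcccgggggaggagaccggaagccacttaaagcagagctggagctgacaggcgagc
A match is a description of these letters and was not tested for binding.

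Cholesterol synthesis is driven by SREBP2, which sterol excess keeps in the endoplasmic reticulum through Scap and the Insig proteins, and delivery of cholesterol by lipoproteins is known to lower its targets. Of 26 genes of this group tested, 11 were called higher with IS + pNaKtide (42.3%) and 3 lower (11.5%), against 18.5% and 15.5% of all genes, with a median of 0.06. The detrended fit called 7 and 3 (all genes, 11.0% and 13.9%), library size alone gave 14 and 0, and without oxLDL + pNaKtide replicates 1 and 4 the counts were 7 and 1. Insig1, the feedback protein and a sensitive target of SREBP2, was at 314, 292, 361, 340.4 and 333 CPM with IS + pNaKtide and at 169.9, 180.1, 248, 130.4 and 147 CPM with oxLDL + pNaKtide. The highest oxLDL + pNaKtide library remained below the lowest IS + pNaKtide library. The log2 fold change was 0.90 (SE 0.15, adjusted p = 0.000283), or 0.75 detrended (adjusted p = 6.73e-05). With pNaKtide alone Insig1 spanned 217 to 331 CPM, with IS 188 to 360.4 CPM and with oxLDL 265 to 301 CPM.

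Sc5d, a desaturase late in the pathway, read 41.8, 41.2, 44.6, 46.4 and 41.8 CPM against 22.2, 23.9, 28, 16.1 and 21.6 CPM. It was higher in every IS + pNaKtide library (log2 fold change 0.94, SE 0.15, adjusted p = 0.00025), with 0.57 detrended. Hmgcs1, a synthase early in the pathway, was at 234 ± 18.2 and 158 ± 34.2 CPM (0.56, adjusted p = 0.00649), and at 0.18 detrended (adjusted p = 0.0624). Others called higher were the sterol carrier Stard4 (0.68, detrended 0.37), Idi1 (0.65, detrended 0.16 and not called), Hsd17b7 (0.62, detrended 0.36), Insig2 (0.41, detrended 0.22 and not called), Lss (0.34, detrended 0.19 and not called), Msmo1 (0.31, detrended -0.10 and not called) and Cyp51 (0.30, detrended 0.05 and not called). Lower were Ebp (log2 fold change -0.47, adjusted p = 0.0333), the sterol isomerase, whose call was lost without oxLDL + pNaKtide replicate 4 (adjusted p = 0.128), Scap (log2 fold change -0.31, adjusted p = 0.0142), the escort of SREBP, and Fdps (-0.29, adjusted p = 0.0689).

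The Hmgcs1 promoter is shown as the promoter among these members that held the searched sterol regulatory element, TCACNCCAC on either strand. This sequence lies in 1.05% of all 32851 promoters and in 1 of 19 list members with an entry, at chr13:119690101-119690350 on the + strand, 137 bases before the start. The Tiparp promoter holds it too, as 1 of 13 AhR members, and that of Insig1 does not.
Hmgcs1: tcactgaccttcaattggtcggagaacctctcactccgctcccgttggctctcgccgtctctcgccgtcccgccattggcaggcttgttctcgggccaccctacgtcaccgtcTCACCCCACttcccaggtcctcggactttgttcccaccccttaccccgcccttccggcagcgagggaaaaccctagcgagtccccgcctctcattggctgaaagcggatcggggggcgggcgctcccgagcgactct
Capitals mark the match, which again describes letters and no binding.

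Genes of cholesterol efflux under the liver X receptors (LXR), which respond to oxysterols, were called in both directions. Of 18 tested, 8 were lower with IS + pNaKtide (44.4%), that is higher with oxLDL + pNaKtide, and 5 higher (27.8%), against 15.5% and 18.5% of all genes, with a median of -0.18 (-0.27 detrended). With library size alone the count was 6 each way, and 6 were lower and 2 higher without oxLDL + pNaKtide replicates 1 and 4. Nr1h3, which codes for LXRα, was at 123, 135, 119.5, 136 and 122 CPM with IS + pNaKtide and 186, 193, 169, 258 and 221 CPM with oxLDL + pNaKtide. The groups were apart, and the log2 fold change was -0.69 (SE 0.13, adjusted p = 0.000879). Apoe (log2 fold change -0.55, adjusted p = 0.00271), the apolipoprotein, was lower as well, narrowly missing the threshold when detrended (-0.27, adjusted p = 0.101). Pltp (-0.67, detrended -0.44), Nr1h2 (-0.54, detrended -0.32), Lpcat3 (-0.46), Npc2 (-0.38), Scarb1 (-0.36) and Npc1 (-0.32, detrended -0.58) completed the set. The efflux transporter Abcg1 was higher instead, at 16.1 ± 1.23 against 12.1 ± 1.24 CPM (0.41, adjusted p = 0.0085), as were Mylip (log2 fold change 0.30, adjusted p = 0.00535), a ubiquitin ligase induced by LXR, Arl4c (0.60), Soat1 (0.37, detrended 0.00 and not called) and Lipa (0.17, but called lower at -0.27 when detrended, adjusted p = 0.0565). Abca1 was at 119.5 ± 23.4 and 134 ± 59.4 CPM (-0.17, adjusted p = 0.591), and called lower when detrended (-0.39, adjusted p = 0.0853), with IS + pNaKtide replicate 2 lower than the rest of its group.

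Among 16 scavenger and lipoprotein receptors tested, 3 were higher (18.8%) and 1 lower (6.25%), against 18.5% and 15.5% of all genes, and with library size alone 7 were higher and 1 lower. Cd36, the main oxLDL receptor of adipocytes, read 978, 944, 1053, 1029 and 961 CPM with IS + pNaKtide and 689, 773, 774, 456 and 648 CPM with oxLDL + pNaKtide. Although the groups did not overlap and the log2 fold change was 0.57 (SE 0.14, adjusted p = 0.00439), the detrended value was -0.07 (adjusted p = 0.623). Vldlr (log2 fold change 0.50, adjusted p = 0.00135, detrended 0.25) and the ferritin receptor Scara5 (log2 fold change 0.37, adjusted p = 0.0019) were higher in both fits, and Scarb1 (log2 fold change -0.36, adjusted p = 0.0123), the HDL receptor, was lower in both.

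Components of the pathway that pNaKtide targets were called at shares near those over all genes. Of 20 genes of Na,K-ATPase subunits, Src family kinases and caveolae, 4 were higher and 4 lower (20% each), against 18.5% and 15.5% of all genes tested, with a median of -0.03 (0.14 with library size alone). The detrended fit called 2 higher and 6 lower. Src had a log2 fold change of 0.18 (adjusted p = 0.0956) at 25.6 ± 1.94 and 22.5 ± 1.77 CPM, a call that was lost in 7 of 10 leave-outs and a value of 0.34 when detrended. Yes1, a Src family kinase, differed more, with 20.9, 15.6, 18, 19.1 and 18.1 CPM against 7.99, 10.8, 9.6, 5.13 and 6.14 CPM. The groups were far apart (1.19, SE 0.25, adjusted p = 0.00174), and 0.64 remained when detrended. Of the caveolar coat genes, Cav1 was at 795 ± 92.2 and 799.5 ± 102 CPM (-0.01, adjusted p = 0.97). Its log2 fold change was 0.17 with library size alone, and in the detrended fit it was -0.22 and called lower (adjusted p = 0.0879). Cav2 (log2 fold change 0.49, adjusted p = 0.0152) was higher although its detrended value was -0.01, and Cavin3 (log2 fold change -0.49, adjusted p = 0.0085, detrended -0.19) was lower. Cavin2 (0.32, detrended 0.02 and not called) was higher, and Csk, the inhibitor of Src kinases (-0.36, detrended -0.21), and Fxyd5, a pump regulator (-0.61), were lower.

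Toll-like receptor 4 binds lipopolysaccharide and some oxidized lipids and signals through IκB kinases to NF-κB. In this group 10 of 31 genes tested were higher (32.3%) and 3 lower (9.68%), against 18.5% and 15.5% of all genes, with a median of 0.18 (0.10 detrended). The counts were 6 and 2 in the detrended fit, where they were 11.0% and 13.9% over all genes, and also without oxLDL + pNaKtide replicates 1 and 4. Tlr4 was at 11.3, 8.39, 11.8, 10.1 and 10.8 CPM with IS + pNaKtide and 7.18, 6.86, 5.69, 4.3 and 4.83 CPM with oxLDL + pNaKtide. The groups did not overlap (0.85, SE 0.20, adjusted p = 0.00285), and the detrended value was 0.29 (adjusted p = 0.0844). Tlr2 (log2 fold change 0.76, adjusted p = 0.000743), a receptor for lipoproteins, and Nfkb1 (log2 fold change 0.54, adjusted p = 0.000443), the p105/p50 subunit, were higher in both fits. Chuk, the IκB kinase α, read 43.4, 34.7, 48.3, 53.8 and 47.9 CPM and 28.3, 27, 33.3, 15.6 and 23.6 CPM, all of the former above the latter (0.82, adjusted p = 0.0104, detrended 0.39). Lower were Rela (log2 fold change -0.26, adjusted p = 0.041, detrended -0.06 and not called), Lcn2 (log2 fold change -0.80, adjusted p = 0.0176), the iron-binding lipocalin of inflamed fat, and Nfkb2 (-0.27, detrended -0.12 and not called). The chemokine Ccl2 was at 0.988 ± 0.347 and 0.823 ± 0.515 CPM, with a log2 fold change of 0.24 (adjusted p = 0.66), or 0.12 detrended. Creb1, the cAMP-responsive factor, was at 20 ± 2.04 and 12.6 ± 3.00 CPM (0.66, adjusted p = 0.0123), and not called when detrended (0.18, adjusted p = 0.209).

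A list that joins genes of Nrf2, which oxidants release from Keap1, with other antioxidant genes had more members lower with IS + pNaKtide. The kinds of gene within it were not counted apart. Of 37 tested, 16 were lower (43.2%) and 7 higher (18.9%), against 15.5% and 18.5% of all genes, with a median of -0.23, whereas with library size alone 14 were higher and 12 lower, and 11 were lower and 4 higher without oxLDL + pNaKtide replicates 1 and 4. The lower ones included the ferritin light chain Ftl1, at 1821 ± 96.7 against 2991 ± 598 CPM (-0.72, adjusted p = 0.00234, detrended -0.35), Txn1 (log2 fold change -0.37, adjusted p = 0.00115), thioredoxin, Sod3 (-0.75), Sod1 (-0.50), Gpx1 (-0.45, detrended -0.13 and not called) and Gpx4 (-0.43, detrended -0.11 and not called). Higher were Gclc, the catalytic subunit of glutathione synthesis, at 23.7 ± 1.92 against 15.7 ± 1.1 CPM (0.60, adjusted p = 0.000648), Txnrd1 (log2 fold change 0.51, adjusted p = 0.00284), Gsr (0.55) and Nfe2l2 itself (0.25, detrended -0.02 and not called). Heme oxygenase Hmox1 was at 185 ± 2.28 and 179.6 ± 13.3 CPM (0.05, adjusted p = 0.75), while its detrended value of 0.25 was called (adjusted p = 0.00638).

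Of 34 genes of the ATF4 and unfolded protein responses, 11 were lower (32.4%) and 8 higher (23.5%), against 15.5% and 18.5% of all genes, with a median of -0.08. With library size alone 6 were lower and 12 higher, with a median of 0.09. The counts were 9 lower and 3 higher without oxLDL + pNaKtide replicates 1 and 4. The serine synthesis gene Phgdh (log2 fold change -0.63, adjusted p = 0.00282) and the chaperone-like factor Manf (log2 fold change -0.42, adjusted p = 0.00182) led those lower, and the mitochondrial folate enzymes Aldh1l2 (log2 fold change 0.62, adjusted p = 0.00115) and Mthfd2 (log2 fold change 0.31, adjusted p = 0.00252) those higher.

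Genes of the mature adipocyte were more often lower with IS + pNaKtide. Of 36 tested, 18 were called lower (50.0%) and 2 higher (5.56%), against 15.5% and 18.5% of all genes, with a median of -0.25, and the detrended fit called 19 lower and 1 higher, whereas library size alone gave 14 and 6. The summed adipocyte markers, as given above, overlapped between the groups, with a lower range for IS + pNaKtide, and in these bulk libraries fewer fat cells and less RNA per cell cannot be told apart. Adipoq, which codes for adiponectin, the abundant hormone of fat cells, was at 723, 786, 978, 983 and 870.2 CPM with IS + pNaKtide. It was at 1291, 1129, 1176, 1319 and 1438 CPM with oxLDL + pNaKtide, above all of the former, with -0.55 as the log2 fold change (SE 0.13, adjusted p = 0.00276). IS and oxLDL alone spanned 676 to 932 and 775 to 1125 CPM and pNaKtide alone 937 to 1349 CPM. For Adipoq the change of the difference with the peptide was not called (-0.32, adjusted p = 0.199).

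Other members of this list called lower include enzymes of triglyceride storage and release, of which those besides Dgat2 and Mgll are named as examples after their values were seen. Dgat2, which makes triglyceride, read 194, 207, 224, 229 and 227 CPM and 314, 306, 333, 351 and 359 CPM, with the oxLDL + pNaKtide libraries all higher (-0.62, SE 0.09, adjusted p = 9.79e-05). Mgll (log2 fold change -0.69, adjusted p = 0.00025), the monoglyceride lipase, Pnpla2 (-0.56, detrended -0.36), Lipe (-0.38), Fasn (-0.57), Gpd1 (-0.58, detrended -0.38), Agpat2 (-0.53, detrended -0.26) and Dgat1 (-0.55) were lower too, as were the secreted Cfd (-0.78, detrended -0.32) and Retn (-0.76). Cebpa, a master regulator of adipogenesis, was at 202 ± 23.1 and 254 ± 27.5 CPM (-0.33, adjusted p = 0.0305), and was not called when detrended (-0.06). Its partner Pparg was at 147 ± 8.91 and 164 ± 8.07 CPM (-0.16, adjusted p = 0.179), and Lpl, which frees fatty acids from lipoproteins, at 3542 ± 242 and 4139 ± 374 CPM (-0.22, adjusted p = 0.062), a call lost in 5 of 10 leave-outs. Both were called in the detrended fit (-0.35 and -0.50), as was the fatty acid carrier Fabp4, at -0.09 before (adjusted p = 0.567) and -0.58 after (adjusted p = 0.000629). The lipid droplet coat gene Plin1 was called in neither (-0.06 and 0.09). Besides Cd36, Adipor2 (log2 fold change 0.15, adjusted p = 0.0908) was the other gene called higher, a call lost in 8 of 10 leave-outs and at -0.02 when detrended.

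Of 21 preadipocyte and progenitor genes tested, 7 were higher (33.3%) and 3 lower (14.3%), against 18.5% and 15.5% of all genes, with a median of 0.00. The detrended fit called 1 higher and 3 lower, and without oxLDL + pNaKtide replicates 1 and 4 none was higher and 2 were lower. Dlk1, the preadipocyte factor that is lost on differentiation, was at 119.6, 125, 80.9, 78.4 and 101 CPM with IS + pNaKtide and 161, 163, 127, 269.7 and 199 CPM with oxLDL + pNaKtide. The latter were all higher (-0.86, adjusted p = 0.0109), as they were for Ly6a (log2 fold change -0.80, adjusted p = 0.000919), the surface antigen Sca-1. Cd44 (log2 fold change 0.29, adjusted p = 0.0201, detrended 0.01 and not called), a hyaluronan receptor, and the growth factor Igf1 (log2 fold change 0.51, adjusted p = 0.0253, detrended 0.09 and not called) were higher with IS + pNaKtide, the latter with a call lost in 3 of 10 leave-outs (adjusted p up to 0.108).

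Collagen genes were more often lower than higher. Of 27 collagen genes tested, 11 were lower (40.7%) and 2 higher (7.41%), against 15.5% and 18.5% of all genes, with a median of -0.15, and -0.26 in the detrended fit. Library size alone gave 6 lower and 5 higher with a median of 0.03. Col6a2, a chain of the pericellular type VI collagen, was at 1888, 1962, 1856, 1841 and 1939.8 CPM in the IS + pNaKtide libraries, which hardly varied. In the oxLDL + pNaKtide libraries it was at 3125, 2929, 2365, 4005 and 4318 CPM, all higher (-0.82, SE 0.16, adjusted p = 0.00103). Col1a1 (-0.83), Col6a1 (-0.59), Col1a2 (-0.52, detrended -0.82) and Col4a2 (-0.50) were lower with it, and Col15a1 (log2 fold change -0.64, adjusted p = 0.00139), a basement membrane collagen, had with Col6a2 the smallest adjusted p of those lower. Higher were Col4a5 (log2 fold change 0.76, adjusted p = 0.000302) and Col27a1 (log2 fold change 0.73, adjusted p = 0.0254).

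Of 14 small leucine-rich proteoglycans, which bind collagen fibrils and growth factors, 2 were higher and 2 lower (14.3% each), near the 18.5% and 15.5% of all genes tested, or 4 and 1 with library size alone. Ogn, osteoglycin, was at 9.49, 11.9, 5.58, 6.06 and 6.29 CPM with IS + pNaKtide and 2.08, 3.9, 4.97, 2.32 and 2.01 CPM with oxLDL + pNaKtide. The groups did not overlap, though replicate 3 of the latter came close (1.31, SE 0.33, adjusted p = 0.00556), and the detrended value of 0.68 was not called (adjusted p = 0.109). Without the peptide Ogn had the opposite order, at 3.66 to 13.5 CPM with IS and 11 to 18.3 CPM with oxLDL (-0.76, adjusted p = 0.856). Aspn, asporin, read 143, 148, 119, 112 and 123 CPM against 55.5, 72.1, 88.2, 41.4 and 38.6 CPM, all higher with IS + pNaKtide (1.11, SE 0.24, adjusted p = 0.00238, detrended 0.42). Prelp (log2 fold change -0.80, adjusted p = 0.000167) was lower in every library, and Bgn (log2 fold change -0.42, adjusted p = 0.0306), biglycan, was lower with some overlap, a call lost without oxLDL + pNaKtide replicate 4 (adjusted p = 0.103).

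Receptors, Smads and other genes of the TGF-β and BMP pathways were more often higher with IS + pNaKtide. Of 26 tested, 14 were called higher (53.8%) and 2 lower (7.69%), against 18.5% and 15.5% of all genes, with a median of 0.27 (0.11 detrended). The detrended fit called 7 and 3, and 8 were higher and 1 lower without oxLDL + pNaKtide replicates 1 and 4. Acvr1 (log2 fold change 0.39, adjusted p = 0.00226), a type I receptor, and Smad1 (log2 fold change 0.67, adjusted p = 0.000978), a BMP effector, had the smallest adjusted p of those higher, and Smad7, the inhibitory Smad (0.89), and Tgfbr1 (0.72, detrended 0.30) were higher as well. The ligand Tgfb1 itself was lower, at 52.4, 59.7, 46, 43.3 and 50 CPM against 81.8, 85.9, 66.2, 113 and 92.9 CPM without overlap (-0.80, SE 0.19, adjusted p = 0.00376). Id1 (log2 fold change -0.27, adjusted p = 0.0345), a BMP target, was lower only before detrending (0.07 after), and its call was lost without oxLDL + pNaKtide replicate 4 (adjusted p = 0.136).

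Contractile genes under serum response factor were lower in 8 of 20 cases (40.0%) and higher in 2 (10.0%), against 15.5% and 18.5% of all genes, with a median of -0.19. With library size alone 1 was lower and 3 higher, where all genes had 1679 lower and 6207 higher. Without oxLDL + pNaKtide replicates 1 and 4 none was lower and 1 higher, where all genes had 1713 lower and 1569 higher. The summed myofibroblast markers, of which 1 of 5 was called, overlapped between the groups as given above, and their part in this count was not tested. Acta2, smooth muscle actin, was at 7.2, 7.19, 3.36, 4.22 and 5.13 CPM and 11.2, 7.91, 9.77, 17.2 and 9.87 CPM, close to each other at the edges of the groups (-1.03, SE 0.28, adjusted p = 0.00814). Zyx (log2 fold change -0.34, adjusted p = 0.0262, detrended -0.19), zyxin, was lower, a call lost without oxLDL + pNaKtide replicate 4 (adjusted p = 0.102). Cald1 (log2 fold change 0.42, adjusted p = 0.00179, detrended 0.09 and not called), caldesmon, and Tpm4 (log2 fold change 0.18, adjusted p = 0.0829, detrended 0.08 and not called) were higher, and the call of the latter was lost in 7 of 10 leave-outs.

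Of 25 immediate early genes, which serum and stress induce within minutes, 5 were higher (20%) and 2 lower (8%), against 18.5% and 15.5% of all genes, with a median of 0.16, and the detrended fit called 11 and 1 and library size alone 12 and 1. Klf10, a TGF-β-inducible repressor, read 37.5, 31.5, 31.3, 31.4 and 34.8 CPM with IS + pNaKtide and 17.4, 20.8, 23.8, 15.1 and 14.9 CPM with oxLDL + pNaKtide, without overlap (0.85, SE 0.12, adjusted p = 0.000116). Klf6 (log2 fold change 0.81, adjusted p = 0.000405, detrended 0.51) was higher in the same way. Jund (log2 fold change -0.63, adjusted p = 0.00338, detrended -0.17), a subunit of AP-1, was lower, and so was Fosl1 (log2 fold change -0.28, adjusted p = 0.0694), a call lost in 5 of 10 leave-outs and when detrended (0.00).

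Glucocorticoid-responsive genes were measured because the adipogenic medium commonly contains dexamethasone. Of 16 tested, 6 were higher (37.5%) and 4 lower (25.0%), against 18.5% and 15.5% of all genes, with a median of 0.15. The detrended fit called 7 higher and 1 lower, and with library size alone 11 were higher and 1 lower. Pdk4, the kinase that turns off pyruvate dehydrogenase, was at 85.5, 82.9, 76.7, 77 and 80.8 CPM with IS + pNaKtide and 44.5, 52.4, 55.5, 32.1 and 45.1 CPM with oxLDL + pNaKtide. The separation was wide (0.80, SE 0.11, adjusted p = 7.40e-05, detrended 0.63), and Errfi1 (log2 fold change 0.56, adjusted p = 0.000171), an inhibitor of the EGF receptor, was similar. Tsc22d3, known as GILZ (0.84), and the glucocorticoid receptor gene Nr3c1 (0.69, detrended 0.33) were higher too. Besides Lcn2, Rasd1 (log2 fold change -0.49, adjusted p = 0.0233, detrended -0.30 and not called) was lower, and it was also 1 of the 3 genes called between IS and oxLDL without the peptide (-0.81, adjusted p = 0.0972). That call was lost with the replicate block and with only the libraries compared in the fit, where 0 genes were called between IS and oxLDL.

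DNA replication and mitosis genes were lower in 9 of 32 cases (28.1%) and higher in 3 (9.38%), against 15.5% and 18.5% of all genes, with a median of -0.16, although with library size alone 2 were lower and 7 higher with a median of 0.02. The detrended fit called 13 lower and none higher, and 3 were lower and none higher without oxLDL + pNaKtide replicates 1 and 4. Birc5 (log2 fold change -0.61, adjusted p = 0.00281), survivin, and Plk1 (log2 fold change -0.52, adjusted p = 0.00408, detrended -0.31), a mitotic kinase, were lower in both fits. Pcna (log2 fold change 0.36, adjusted p = 0.0107), the sliding clamp, and Top2a (log2 fold change 0.49, adjusted p = 0.0115), topoisomerase IIα, were higher, with 0.00 and 0.02 in the detrended fit. Cdkn1a, the cyclin kinase inhibitor p21, was at 249 ± 9.51 and 318 ± 31.2 CPM (-0.35, adjusted p = 0.016).

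In the families of translation and respiration most calls were lower with IS + pNaKtide. Of 85 cytosolic ribosomal protein genes tested, 72 were lower with IS + pNaKtide (84.7%) and none higher, against 15.5% and 18.5% of all genes, with a median of -0.52, and in the detrended fit 70 were lower with a median of -0.34. Scaling by library size alone gave 57 lower and 1 higher, and 55 were lower without oxLDL + pNaKtide replicates 1 and 4. Rps2 was at 345, 392, 339.6, 330.5 and 356 CPM with IS + pNaKtide and 589, 556, 515, 838 and 657 CPM with oxLDL + pNaKtide, the latter all higher (-0.84, SE 0.16, adjusted p = 0.00103). The levels of Rps13 (log2 fold change -0.67, adjusted p = 0.00142) were also apart. Reads of ribosomal protein genes may be shared with their processed copies in the genome. Without the peptide the median was 0.15, with no member called.

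Nuclear genes of the respiratory chain were lower in 58 of 84 cases (69.0%) and higher in 1 (1.19%), against 15.5% and 18.5% of all genes, with a median of -0.40 (-0.27 detrended). Library size alone gave 40 lower and 5 higher. Atp5o, the oligomycin sensitivity subunit of ATP synthase, read 223, 258, 236, 239 and 235 CPM against 384, 369, 341, 569 and 453 CPM without overlap (-0.83, SE 0.15, adjusted p = 0.000834), and Cox5b (log2 fold change -0.75, adjusted p = 0.00056, detrended -0.49), of cytochrome c oxidase, was lower likewise. The exception was Ndufs1 (log2 fold change 0.49, adjusted p = 0.00633), the largest subunit of complex I, which was not called when detrended (0.09). Mitochondrial ribosomal protein genes were lower in 41 of 78 cases (52.6%) and higher in 2 (2.56%), against 15.5% and 18.5% of all genes, with a median of -0.25. With library size alone 27 were lower and 13 higher, with a median of -0.07. Mrpl51 (log2 fold change -0.57, adjusted p = 0.000845) and Mrpl42 (log2 fold change -0.46, adjusted p = 0.00121, detrended -0.79) had the smallest adjusted p of the former, and Mrps31 (log2 fold change 0.45, adjusted p = 0.0131, detrended 0.16 and not called) and Mrpl50 (log2 fold change 0.35, adjusted p = 0.0319, detrended 0.01 and not called) were the latter. The call of Mrpl50 was lost without oxLDL + pNaKtide replicate 4 or 5 (adjusted p = 0.145 and 0.133).

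Transcripts of the mitochondrial genome were lower in 8 of 19 cases (42.1%), against 15.5% of all genes, with a median of -0.30. When detrended, 12 were lower with a median of -0.83, and library size alone gave 4 with a median of -0.13. The ribosomal RNAs led, with mt-Rnr2 at 307, 419, 418, 392 and 340.4 CPM in IS + pNaKtide libraries and 1413, 570.2, 552, 454 and 523 CPM in oxLDL + pNaKtide libraries. Replicate 1 of the latter was far above the others, as for the 7SK and 7SL RNAs, and the groups did not overlap (-0.90, adjusted p = 0.00281, detrended -1.61). Without replicate 1 the log2 fold change was -0.50. The value for mt-Rnr1 (log2 fold change -0.71, adjusted p = 0.00198, detrended -1.30) showed the same pattern. Proteasome subunits were lower in 18 of 37 cases (48.6%) and higher in 3 (8.11%), against 15.5% and 18.5% of all genes, with a median of -0.21, although with library size alone 6 were lower and 9 higher. In the detrended fit 20 were lower and none higher, and 6 were lower and none higher without oxLDL + pNaKtide replicates 1 and 4. Psma6 (log2 fold change -0.39, adjusted p = 0.00238) and Psmc2 (log2 fold change -0.37, adjusted p = 0.00327, detrended -0.79) were lower in both fits. Psmc6 (log2 fold change 0.58, adjusted p = 0.0199, detrended 0.14 and not called) and Psmd5 (log2 fold change 0.28, adjusted p = 0.0361, detrended -0.03 and not called) were higher, and the call of the latter was lost without oxLDL + pNaKtide replicate 5 (adjusted p = 0.115).

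Zinc finger genes of the Zfp900 series, many of which belong to expansions of KRAB repressors in mouse and have similar sequences between which reads may be shared, lay on the opposite side. Of 62 tested, 37 were higher with IS + pNaKtide (59.7%) and none lower, against 18.5% and 15.5% of all genes, with a median of 0.90. In the detrended fit 11 were higher and none lower, with a median of 0.36, and 13 were higher without oxLDL + pNaKtide replicates 1 and 4. Zfp994 was at 5.81, 4.19, 4.82, 6.52 and 5.13 CPM with IS + pNaKtide and 1.62, 1.9, 3.2, 1.49 and 1.21 CPM with oxLDL + pNaKtide, without overlap (1.45, SE 0.38, adjusted p = 0.00632, detrended 0.80). Zfp930 (log2 fold change 1.22, adjusted p = 0.00282, detrended 0.69) and Zfp983 (log2 fold change 1.21, adjusted p = 0.00323, detrended 0.65) had the smallest adjusted p of the family. Zfp945 (1.24, adjusted p = 0.0232) was not called when detrended (0.46, adjusted p = 0.204). Of zinc finger genes outside the series, Zfp738 (1.36, adjusted p = 0.00618, detrended 0.80) and Zfp51 (1.27, adjusted p = 0.00933, detrended 0.73) were higher too. Without the peptide the median of the family was -0.23, with none called.

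**Figure D5:**
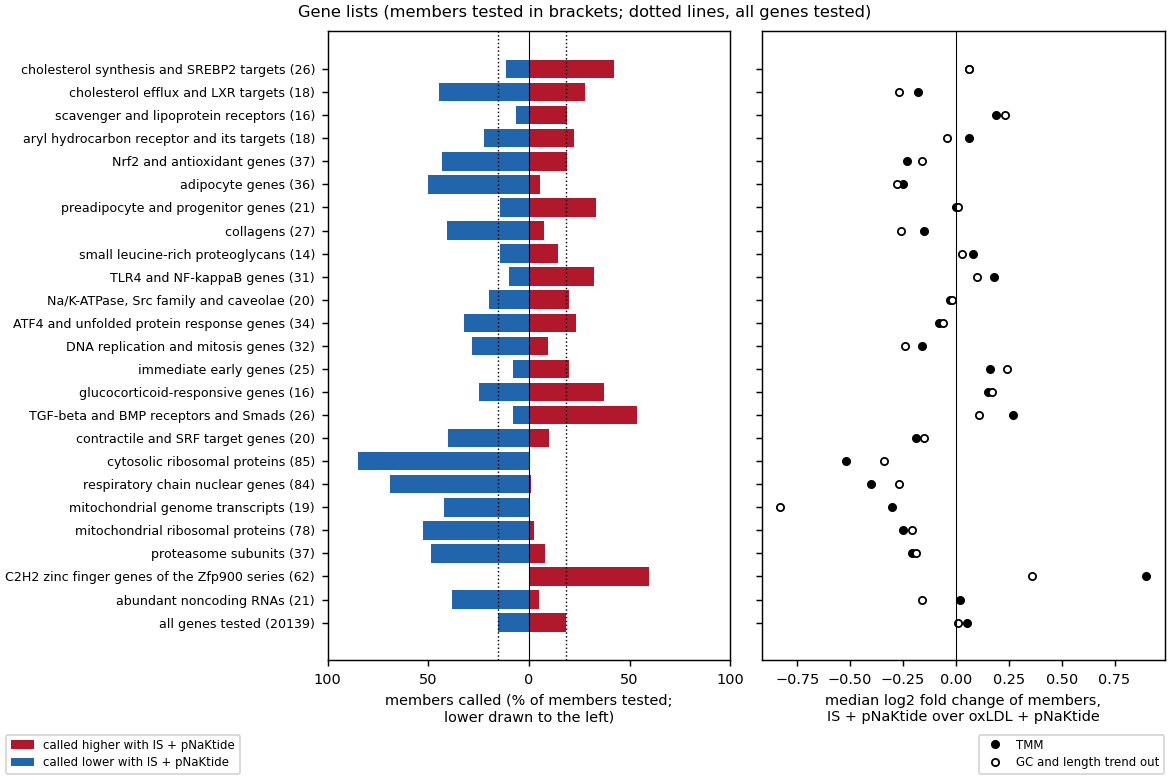
For each gene list, the share of tested members called higher (red) or lower (blue, drawn to the left) with IS + pNaKtide, with dotted lines at the shares over all genes tested (18.5% and 15.5%), and the median log2 fold change of the members with TMM scaling (filled) and with the trend over GC content and length taken out (open). Cytosolic ribosomal proteins (84.7% lower) and the Zfp900 series (59.7% higher) lie furthest from the dotted lines on either side, and the medians of the latter and of the mitochondrial transcripts move most between the fits.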

How the data were processed

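RNA-seq libraries of 3T3-L1 cells (6 groups of 5) were analysed from the count table deposited by the authors. Per the labels and methods, the authors trimmed stranded mRNA reads with Trimmomatic 0.38, aligned them with HISAT2 2.1.0 to GRCm38 and counted reads per gene with GenomicAlignments. Neither the release of the annotation nor the strand setting is given in the sources consulted. The deposited FPKM values are the authors' size-factor-normalized counts divided by 1 value per gene, and were used on a log2 scale in an alternative only. The authors' normalized counts were not used. Group labels came from the sample labels.

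The counts were scaled by TMM and fitted in edgeR 4.0.16 (R 4.3.3) by the robust quasi-likelihood method with all 30 libraries in 1 fit, without a block. Of 54232 genes, 20139 had more than 14 counts over all libraries and were tested, two-sided, with a Benjamini-Hochberg (BH) adjusted p of 0.1 as the threshold, as in the study's methods. The common biological coefficient of variation was 14.0%. In the detrended fit, the trend of every library over exon length and GC content, from the GRCm38 annotation, was estimated with mgcv 1.9.3 and entered as offsets for 20107 genes with a value. DESeq2 1.42.0, limma 3.58.1, other scalings, filters and thresholds, a replicate block, thinning and leaving out libraries were alternatives. The 10 libraries compared held 6945498 to 13195028 counts each, and 6945498 to 15159877 counts was the range over all 30. Limits set by depth cover counting error only.

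Named genes were, in each direction, the 10 with the largest fold change among called genes whose log2 CPM averaged 1 or more and whose groups were apart, without predicted symbols. To these were added for each of 24 lists and each direction, the 2 called members of lowest adjusted p, the 4 with the largest change of the difference, and 28 genes fixed by name. A few other list members are named with their values as examples chosen after their values were seen. Some genes that this rule names are not reported here. The comparison, the lists and the genes were chosen with earlier results of these data known. The fit was run on simulated data with 200 changed genes of 19826 tested. Of the changed genes, 92 of 100 with a log2 change of 1 and 55 of 100 with 0.5 were called. So were 6 unchanged genes. The simulated libraries were independent, with no trend over GC content or length and no outlying library. They therefore do not measure the error rate of the real comparison. The labels do not say that a replicate number marks a shared culture.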

Additional observations from a re-analysis of the deposited data

Results flagged for a closer look

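Among 256 groups of 5 libraries examined, 25 had a highest or lowest library that stood apart from the other 4 by Dixon's criterion, which chance gives in about 1 group in 20. In oxLDL + pNaKtide replicate 1, the structural RNAs stood highest. Rn7sk was at 211.5 CPM (others 11.8 to 20.2), Rn7s1 at 608.3 (38.9 to 76.3), Rn7s2 at 615.0 (38.3 to 76.0) and Rn7s6 at 207.2 (11.3 to 23.5). In the same library CT010467.1 was at 11990.9 CPM (others 1415 to 2099.6), Gm26917 at 1418.8 (189 to 297), Gm42418 at 65.44 (8.02 to 18.4) and Lars2 at 2712.8 (397 to 529.6). The mitochondrial ribosomal RNAs mt-Rnr1 at 1310.6 CPM (616 to 742) and mt-Rnr2 at 1412.9 CPM (454 to 570.2) stood apart there as well, as did the glutathione synthesis gene Gclc at 17.6 CPM (14.9 to 15.4).

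In oxLDL + pNaKtide replicate 4, the library of lowest depth, 17859 genes were detected against 19179 to 19642 in the others, and Vldlr was at 79.63 CPM (111 to 115), Nqo1 at 22.35 CPM (19.5 to 20.3) and Rps13 at 369.5 CPM (251 to 284). In oxLDL + pNaKtide replicate 3, Alyref was at 18.12 CPM (4.93 to 6.37) and Zfp930 at 5.33 CPM (1.99 to 2.96).

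In IS + pNaKtide replicate 2, Abca1 was at 78.65 CPM (123 to 137), Cdkn1a at 266.2 CPM (243 to 247), Rps13 at 205.3 CPM (169 to 177) and Txn1 at 141.3 CPM (125 to 129). In IS + pNaKtide replicate 3, Rn7s1 and Rn7s2 were each at 27.37 CPM (17.0 to 19.8 and 17.2 to 19.9) and Rn7s6 at 9.861 CPM (4.83 to 5.91). In IS + pNaKtide replicate 4, Id1 was at 50.69 CPM (57.0 to 59.5).

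The difference between IS and oxLDL changed with pNaKtide for 5894 genes by edgeR's test of the change itself. The log2 change was 2.07 for Ogn, 1.90 for Zfp984, 1.84 for Zfp758 and 1.81 for Zfp994, and -3.32 for Rn7s2, -3.31 for Rn7s1, -3.29 for Rn7sk and -3.28 for Rn7s6.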

How the results depend on the processing

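The number of genes called between IS + pNaKtide and oxLDL + pNaKtide was 3282 without oxLDL + pNaKtide replicates 1 and 4, an alternative chosen after seeing the data, and 4504 to 7350 on leaving out 1 library. The change of the difference was called for 2914 genes without both libraries, for 3498 in the detrended fit and for 3790 to 6616 with 1 library left out. For IS against oxLDL, the 3 calls became 41 with DESeq2, 20 detrended, 12 with genes over 14 counts in each library alone, 7 with library size alone, 5 with limma on log2(FPKM + 1) or log2(FPKM + 0.1) and 1 without both libraries. They became 0 at an adjusted p of 0.05, after thinning and with only the libraries compared, and 0 to 2 with 1 library left out. For IS + pNaKtide against pNaKtide, the number was 464 at an adjusted p of 0.05, 617 with IS + pNaKtide libraries 3 and 4 summed (chosen after seeing the data), 2211 detrended, 1862 with all genes with a count, 1401 with unfiltered FPKM and 5393 with only the libraries compared, and 22 to 5487 with 1 library left out. For oxLDL + pNaKtide against pNaKtide it was 95 with DESeq2, 40 detrended, 18 with library size alone, 17, 20 and 21 with limma on log2(FPKM + 1), log2(FPKM + 0.1) and unfiltered FPKM, 1 with genes over 14 counts in every library or without both libraries, and 0 at an adjusted p of 0.05, after thinning, with libraries 3 and 4 summed and with only the libraries compared. It was 0 to 4 with 1 library left out. The causes were not tested.

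Same-numbered IS + pNaKtide and oxLDL + pNaKtide libraries had deviations that correlated at 0.07, -0.31, 0.16, -0.31 and 0.18, and same-numbered IS and oxLDL libraries at 0.10, 0.51, -0.12, 0.71 and 0.12. The criterion for pairing, a correlation above 0.1 for every number, was met in neither set, so the numbers were not used as pairs. With the replicate block 7404 genes were called between them in place of 6850, and 0 in place of 3 between IS and oxLDL.

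With library size alone, some lists had more members higher than lower. They were Nrf2 and antioxidant (12 lower), ATF4 (6 lower), replication (2 lower), contractile (1 lower) and proteasome genes (6 lower). That scaling shifted the balance over all genes too, to 6207 higher and 1679 lower of 20139. These counts are therefore not by themselves a reversal of the lists. Without both libraries, contractile genes also had more higher than lower (0 lower), where all genes had 1569 higher and 1713 lower of 20033. Preadipocyte genes had 5 higher with DESeq2, 1 detrended, 6 with log2(FPKM + 1), 0 without both libraries and 2 to 4 where leaving out 1 library turned their balance. Among genes named by rule, the log2 fold change turned sign or came to 0 when detrended for Cd36 (-0.07), Cav2 (-0.01), Adipor2 (-0.02), Psmd5 (-0.03), Pcna (0.00), Fosl1 (0.00), Id1 (0.07) and Plin1 (0.09). Among list members named as examples it turned for Lipa (-0.27), Msmo1 (-0.10) and Nfe2l2 (-0.02). With library size alone it turned for Abca1 (0.02), Cav1 (0.17), Fabp4 (0.09), Plin1 (0.13) and Pparg (0.02). With 1 library left out, values ran from -0.07 to 0.05 for Cav1, from -0.33 to 0.06 for Abca1 and from -0.03 to 0.65 for Ccl2. Of 124 genes named in the text by rule, 76 kept direction and side of the threshold under every alternative that tested them. Depth limits genes near 1 CPM, such as Ahr and Ccl2.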
